A study of Mus musculus with 6 samples.

Results

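The matrix metalloproteinases (Mmp), the ADAMTS proteases (a disintegrin and metalloproteinase with thrombospondin motifs, Adamts), the tissue inhibitors of metalloproteinases (Timp) and the related protease Adam12 were followed in RNA sequencing of the mouse inner ear. Members were the protein-coding genes of the deposited table whose symbols belong to these families, 46 of 55401 genes in all: 22 Mmp, 19 Adamts and 4 Timp genes and Adam12. Libraries came from mice mutant for Pou3f4 (Pou3f4 KO, genotype Pou3f4y/-, n = 3) and from wild-type mice (WT, n = 3). Pou3f4 is an X-linked transcription factor of the mesenchyme that forms the bony and connective tissue shell of the ear, and the study compared the genotypes to look into the pigmentation of the mutant ear. By the labels each library holds inner ear cells, with all cells as the cell type and interstitial cells as the cell line, and no age, strain or allele is stated. Whether each library is from its own animal is not stated either, so p-values measure only the spread between these libraries, which may be technical in part.

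Metalloproteinases of these families hold a zinc ion in the active site and cut proteins of the extracellular matrix. Most are made as inactive precursors, and TIMPs block the active enzymes by binding the zinc. Collagenases open the triple helix of fibrillar collagens, gelatinases take the unfolded chains further, ADAMTS proteases trim procollagens and cleave large proteoglycans, and in bone and hypertrophic cartilage Mmp9, Mmp13 and Mmp14 are known for the removal of matrix during growth and remodelling.

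The coding sequence of the zinc site is shown for the 5 members whose level differed between the genotypes, because it is the feature that unites the proteases. Capitals mark the 3 histidine codons that hold the zinc and the codon at position 8 of the 11.
Mmp13: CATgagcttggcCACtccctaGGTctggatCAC
Mmp16: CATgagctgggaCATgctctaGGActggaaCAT
Adam12: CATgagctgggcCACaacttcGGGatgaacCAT
Adamts9: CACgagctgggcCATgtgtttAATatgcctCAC
Adamts20: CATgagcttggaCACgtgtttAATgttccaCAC
These stretches lie in mm10 at chr9:7276573-7276605 (plus strand) for Mmp13, chr4:18051748-18051780 (plus strand) for Mmp16 and chr7:133961158-133961190 (minus strand) for Adam12, each within 1 exon. An intron splits the stretch in Adamts9 (chr6:92905285-92908493, minus strand) and in Adamts20 (chr15:94353678-94355296, minus strand). The pattern searched for was the 3 histidine codons, a glutamate codon, and a glycine or asparagine codon at position 8. It was found in 41 of the 42 proteases, all but Adamts8, and in 0 of the 4 TIMPs, which are not enzymes. A site with another codon at position 8 would be missed, so the search does not show that Adamts8 lacks one. Codon 8 was a glycine codon in 36 and an asparagine codon in 5 proteases, the kinds that the search allowed. Adamts9, which was higher in KO, and Adamts20, which was lower, both carried the asparagine codon.

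Total counts ranged from 18883922 to 23323953 in the KO libraries and from 18409409 to 19133386 in the WT libraries, so that a count of 0 allowed up to 0.131 to 0.168 CPM (counts scaled to a library of 1000000 reads, with TMM factors) as a limit of counting error only. Pou3f4 held 45, 28 and 30 counts in KO replicates 1 to 3 and 1044, 2140 and 2233 counts in WT replicates 1 to 3, which matched the labels. The genotype Pou3f4y/- is that of a male, but Xist, which female cells make from their silenced X chromosome, held 1, 15783 and 15119 counts in KO and 11165, 9143 and 6 counts in WT, so KO replicates 2 and 3 went against it. Xist differed within each genotype, so the libraries of a genotype were not all repeats of the same sample, though some may share an animal. With Xist reads as a term in the fit, 0 genes and 0 members passed (3185 genes and 14 members at an unadjusted p under 0.05), and the log2 fold changes of the 5 members called without the term were 1.17 for Mmp13, 1.00 for Adam12, 0.75 for Adamts9, 0.74 for Mmp16 and −1.06 for Adamts20, each with an adjusted p of 0.145. Hair cell markers summed to 49.3 to 59.4 CPM in KO and 31.5 to 74.0 CPM in WT, and none of the markers looked at was at 0 in all libraries. Skeletal muscle markers summed to 36.5, 922 and 55.4 CPM in KO and to 6959, 167 and 11655 CPM in WT. WT replicate 1 stood apart in its fibroblast, keratinocyte and neutrophil marker sums, and whether the tissue taken differed was not tested. Its 6 fibroblast markers (such as Dcn and Col3a1) summed to 14131 CPM and its 5 keratinocyte markers to 788 CPM, against at most 4733 and 10.6 CPM in the other 5 libraries, while its 11 neutrophil markers summed to 209 CPM, against at least 846 CPM in the others. Among the 39 members that passed the filter on low counts, the coefficient of variation was larger in WT than in KO for 33, with medians of 7.24% in KO and 17.6% in WT.

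Of the 39 members tested, 4 were higher in KO (Mmp13, Mmp16, Adam12 and Adamts9) and 1 was lower (Adamts20), at an adjusted p under 0.05 with the quasi-likelihood test of edgeR and Benjamini-Hochberg adjustment over all genes. That was 12.8% of them, 10.3% higher and 2.56% lower, and over all 19687 genes tested 0.396% were called, 0.213% higher and 0.183% lower. DESeq2 called 9 members higher (23.1%) and 4 lower (10.3%), including all 5, beside 3.22% and 4.89% of all genes, or 33.3% of members and 8.11% of genes in either direction. Limma-voom called the same 5 members as edgeR. The 5 calls lay close to the threshold, since 57 of the 78 genes called shared the adjusted p of 0.049, and they depended on the libraries used. With edgeR, 0 members passed without KO replicate 1, KO replicate 2, KO replicate 3 or WT replicate 3 (12, 14, 13 and 16 members at an unadjusted p under 0.05), nor did any gene of the table. Without WT replicate 1, 17 members passed, 14 higher (35.9%, beside 3.60% of all genes) and 3 lower (7.69%, beside 5.46%). Without WT replicate 2, 10 members passed, 7 higher (17.9%, beside 1.41%) and 3 lower (7.69%, beside 2.37%), and the 5 were among them both times. The direction of the 5 was the same in each of these fits. In bulk RNA, fewer cells of a type and less RNA per cell cannot be told apart.

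**Figure D1:**
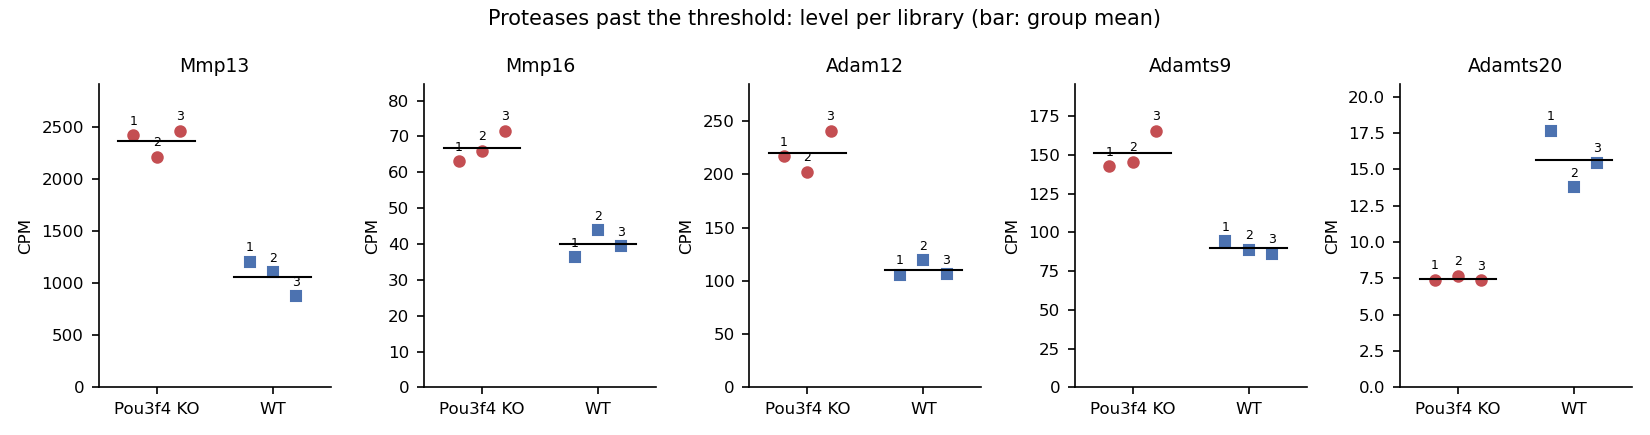
Level (CPM, linear axis from 0) of the 5 members past the threshold in each library, Pou3f4 KO on the left (circles) and WT on the right (squares), with the replicate number and the group mean as a bar. Each KO library lies above each WT library for Mmp13, Mmp16, Adam12 and Adamts9 and below each WT library for Adamts20.

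Among the collagenases, Mmp13, the main collagenase of bone and hypertrophic cartilage in mice (ENSMUSG00000050578, mm10 chromosome 9, 7272514 to 7283331, plus strand), stood at 2426, 2218 and 2467 CPM in KO replicates 1 to 3, against 1209, 1106 and 877 CPM in WT replicates 1 to 3. The lowest KO library thus lay well above the highest WT library. Mmp13 rose 2.23-fold, with means of 2370 ± 134 CPM in KO and 1064 ± 170 CPM in WT (SD, n = 3 each). The log2 fold change was 1.16 with an SE of 0.14 and an adjusted p of 0.049 by edgeR. Without single libraries the log2 fold change lay between 1.04 and 1.25 and the adjusted p between 0.00605 and 0.357. The 3 hypertrophic chondrocyte markers summed to 989 to 1792 CPM in KO and 1095 to 1999 CPM in WT. Of them 1 was fitted above 0 and 2 below, and 0 passed with edgeR or DESeq2. The 10 osteoblast and osteocyte markers summed to 10159 to 10707 CPM in KO and 7361 to 10680.3 CPM in WT. Of these, 7 were fitted above 0 and 3 below, and 0 passed with edgeR and 1 was higher with DESeq2 (5 at an unadjusted p under 0.05, edgeR). The part of these cell types in the level of Mmp13 was not tested. Mmp8, the collagenase stored in neutrophil granules, stood at 47.5, 42.0 and 51.2 CPM in KO and at 5.92, 31.6 and 47.2 CPM in WT. The range of the WT libraries was wide and reached into the KO range (log2 fold change 0.73, SE 0.62, adjusted p = 0.541). The 11 neutrophil markers summed to 883, 846 and 924 CPM in KO and to 209, 937 and 1233 CPM in WT. Like Mmp8 they were lowest in WT replicate 1, but unlike Mmp8 they were higher in WT replicates 2 and 3 than in every KO library, and none of them passed (0 also with DESeq2 and 0 at an unadjusted p under 0.05, edgeR). The part of neutrophil number in the level of Mmp8 was not tested. Mmp1b held 0 counts in all 6 libraries.

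The bases before the start of Mmp13 are shown because it was the most abundant member that changed, and because binding sites of AP-1 and RUNX factors in this promoter are known to drive it in bone cells. They are 150 bases of chr9:7272364-7272513, plus strand (RefSeq, GRCm38.p6), with capitals marking a match to the RUNX motif on the reverse strand and one to the AP-1 motif.
Mmp13: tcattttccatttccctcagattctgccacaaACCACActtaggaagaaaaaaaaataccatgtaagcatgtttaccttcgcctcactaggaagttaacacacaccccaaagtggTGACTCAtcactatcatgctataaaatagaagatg
Promoter windows of 250 bases before to 50 bases after a start were found for 31 of the 46 members (34 windows), and 3 motifs were searched on both strands. These were TGANTCA for AP-1, a loose pattern in which N is any base, TGTGGT for RUNX and ATGCAAAT, the octamer bound by many POU-domain factors. AP-1 matches stood in 7 of the 34 windows, against 7.81% of all 32851 windows in the table. RUNX matches stood in 6 of the 34, against 16.8% of all windows, and octamer matches in 0, against 1.74%. At a share of 1.74%, a count of 0 in 34 windows is not informative. Mmp16 and Adam12, which were called, and Mmp9 and Mmp2 had no window. No 2 of the motifs overlapped in the windows with both.

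The 7 windows with an AP-1 match belonged to 7 secreted Mmp genes of 1 cluster on chromosome 9, shown with 10 bases on either side of the match in capitals.
Mmp13: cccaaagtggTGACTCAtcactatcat
Mmp10: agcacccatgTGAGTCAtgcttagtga
Mmp3: gaagcaattaTGAGTCAgttttcgggt
Mmp12: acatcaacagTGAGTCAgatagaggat
Mmp20: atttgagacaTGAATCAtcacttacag
Mmp7: agtgtgcaaaTGAGTCAcctatttcca
Mmp1b: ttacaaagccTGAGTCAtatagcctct
They lie at chr9:7272469-7272495 (Mmp13), chr9:7502269-7502295 (Mmp10), chr9:7445766-7445792 (Mmp3), chr9:7347320-7347346 (Mmp12), chr9:7628126-7628152 (Mmp20), chr9:7692017-7692043 (Mmp7) and, on the minus strand, chr9:7388103-7388129 (Mmp1b). The centre base of the match was A in Mmp20 and C or G in the others. A match does not show that a factor binds. Mmp8 and Mmp27, also in this cluster, had windows without an AP-1 match. Levels within the cluster differed widely. Per kilobase of exon, Mmp13 had 887 CPM in KO and 398 CPM in WT, Mmp8 had 19.3 CPM in KO and 11.6 CPM in WT, and each of the other cluster genes was below 2 CPM in both. Of the other cluster genes only Mmp3, Mmp8 and Mmp10 had enough counts for a test, and 0 of them passed with edgeR or DESeq2, which gave Mmp10 no adjusted p (1, Mmp10, at an unadjusted p under 0.05 with edgeR).

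Of the gelatinases, Mmp9, which is abundant in osteoclasts and neutrophils (ENSMUSG00000017737, chromosome 2, 164940780 to 164955850, plus strand), stood at 3391, 3187 and 3534 CPM in KO, against 1721, 2164 and 2449 CPM in WT. The groups did not overlap, and the log2 fold change of 0.67 (SE 0.14) did not pass with edgeR (adjusted p = 0.0982). DESeq2 gave an adjusted p of 0.000736, and edgeR a change of 0.53 with an adjusted p of 0.0186 once WT replicate 1 was left out. Mmp9 was not called without WT replicate 2 or 3 (0.69 and 0.80, adjusted p = 0.084 and 0.143, edgeR). The 7 osteoclast markers, among them Ctsk and Acp5, summed to 6562, 6993 and 7068 CPM in KO, against 2675, 4786 and 3630 CPM in WT, with no overlap. All 7 had fitted changes above 0 (median 0.94), 0 passed with edgeR and 5 with DESeq2 (6 at an unadjusted p under 0.05, edgeR). Ctsk, the most abundant of them, stood at 4139 ± 175 CPM in KO and 2164 ± 564 CPM in WT (SD, n = 3 each). The 9 macrophage markers summed to 760 to 823 CPM in KO and 490 to 592 CPM in WT. Of them 7 were fitted above 0 and 2 below, and 0 passed with edgeR and 3 were higher with DESeq2. The neutrophil markers summed to 883, 846 and 924 CPM in KO and to 209, 937 and 1233 CPM in WT. Unlike Mmp9, they were higher in WT replicates 2 and 3 than in every KO library. The part of osteoclast, macrophage or neutrophil number in the level of Mmp9 was not tested. Mmp2, the gelatinase of fibroblasts and other stromal cells, stood at 695, 680 and 733 CPM in KO and at 952, 540 and 496 CPM in WT. WT replicate 1, the library with the highest fibroblast marker sum, had the highest level of Mmp2 (log2 fold change 0.08, SE 0.25, adjusted p = 0.877), and without it Mmp2 was called higher in KO (0.43, adjusted p = 0.0211). The change was −0.04 without WT replicate 2 and −0.09 without WT replicate 3 (adjusted p = 0.943 and 0.875, edgeR). The part of fibroblast number in the level of Mmp2 and in the other levels that were highest in WT replicate 1 was not tested.

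**Figure D2:**
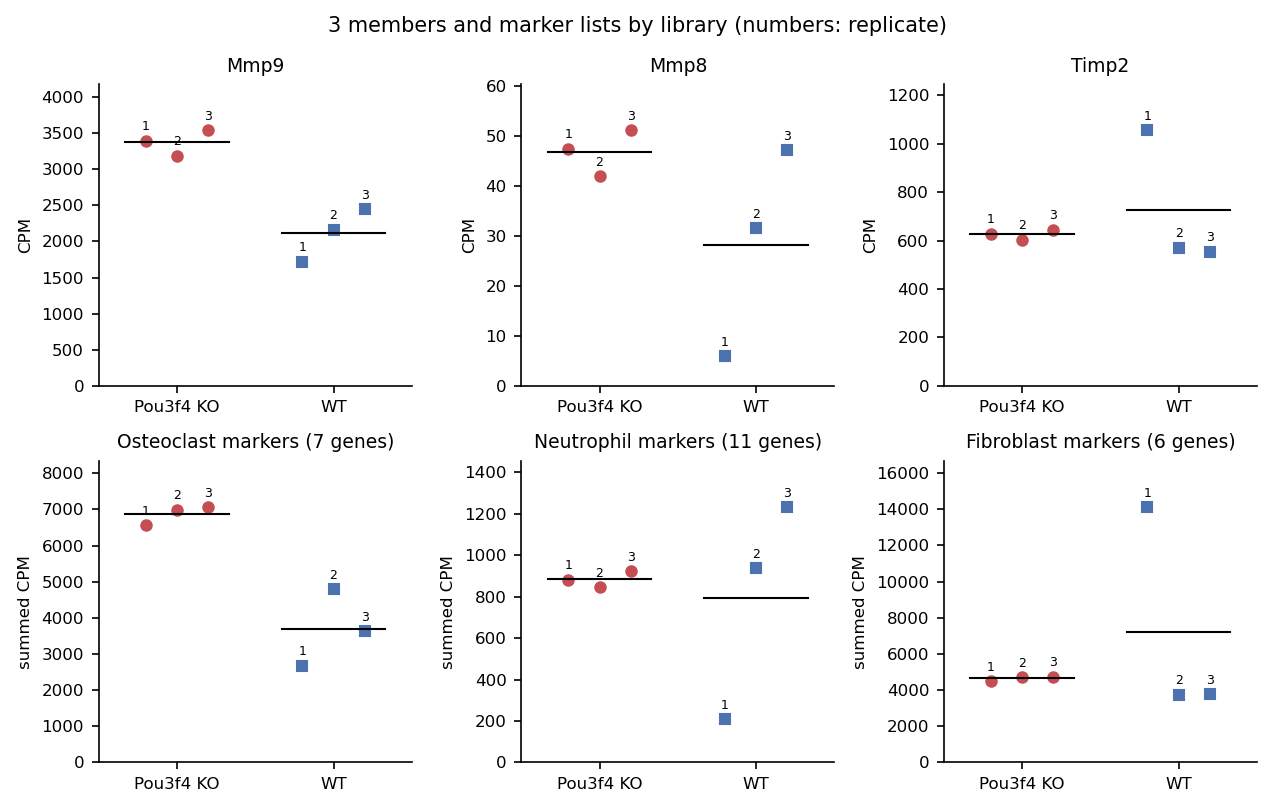
Level of Mmp9, Mmp8 and Timp2 (top row, CPM) and summed CPM of the osteoclast, neutrophil and fibroblast markers (bottom row) in each library, Pou3f4 KO on the left and WT on the right, with the replicate number and the group mean as a bar. WT replicate 1 is the lowest WT library for Mmp9, Mmp8 and the first 2 marker sums and the highest library for Timp2 and the fibroblast sum.

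Of the 3 stromelysins tested, 0 passed with edgeR and 1, Mmp11, was lower with DESeq2 (2 at an unadjusted p under 0.05, edgeR). Mmp11, a stromelysin of stromal cells that the convertase furin activates, stood at 54.6, 62.4 and 57.7 CPM in KO, against 102, 82.0 and 80.1 CPM in WT. Every KO library was below every WT library, and the change of −0.60 (SE 0.12) did not pass with edgeR (adjusted p = 0.0877), but DESeq2 called it lower with an adjusted p of 0.000994, as did edgeR when WT replicate 1 was left out (−0.49, adjusted p = 0.0186). Mmp11 was not called when WT replicate 2 or 3 was left out (−0.64 and −0.66, adjusted p = 0.054 and 0.159, edgeR). Chchd10, on the other strand, covers 5.6% of its exon length. Mmp3 held 12, 9 and 15 counts in KO and 88, 9 and 12 counts in WT. Its fitted change of −1.79 (SE 0.95, adjusted p = 0.346) was 0.05 without WT replicate 1, the library with the most counts. Mmp10, a close relative, held 25, 16 and 14 counts in KO and 5, 9 and 3 counts in WT, a change of 1.48 (SE 0.44, adjusted p = 0.163). Its level is uncertain at so few counts, and whether its reads were split with those of Mmp3 was not examined.

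Of the 7 membrane-anchored members tested, 1 was higher and 0 were lower with edgeR, and 1 was higher and 1 was lower with DESeq2. Mmp16, a membrane-type protease that can activate proMmp2 (ENSMUSG00000028226, chromosome 4, 17852893 to 18119145, plus strand), stood at 63.1, 66.0 and 71.6 CPM in KO, against 36.4, 43.9 and 39.4 CPM in WT. It rose 1.68-fold, with means of 66.9 ± 4.34 CPM in KO and 39.9 ± 3.78 CPM in WT (SD, n = 3 each; log2 fold change 0.75, SE 0.10, adjusted p = 0.049, edgeR). Mmp15, another membrane-type protease, stood at 43.2, 42.4 and 43.5 CPM in KO and at 57.8, 64.4 and 64.7 CPM in WT. The KO libraries lay close together and below each WT library, with a change of −0.53 (SE 0.08) just over the threshold (adjusted p = 0.0556, edgeR). It was called lower with DESeq2, with the filter of 1 CPM in 3 libraries and without WT replicate 1 or 2. Mmp14, the membrane-type collagenase that activates proMmp2 and proMmp13, stood at 638, 580 and 709 CPM in KO and at 667, 413 and 445 CPM in WT. Its KO range held WT replicate 1 and lay above the other 2 WT libraries (0.34, SE 0.20, adjusted p = 0.382), and without WT replicate 1 it was called higher (0.57, adjusted p = 0.0245). Leaving out WT replicate 2 or 3 gave no call (0.21 and 0.25, adjusted p = 0.549 and 0.571, edgeR). Mmp23 followed the same libraries, at 20.8 to 22.6 CPM in KO and 10.2 to 26.5 CPM in WT, and was called higher without WT replicate 1 (0.81, adjusted p = 0.03). It was not called without WT replicate 2 or 3 (0.24 and 0.08, adjusted p = 0.747 and 0.892, edgeR). Mmp24, Mmp17 and Mmp25 had log2 fold changes of −0.27, −0.20 and 0.05 and overlapping libraries, and Mmp24 exons overlap BC029722 on the opposite strand over 13.6%.

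Of the other secreted Mmp genes, Mmp19 stood at 11.5, 12.7 and 12.98 CPM in KO and at 21.2, 14.8 and 13.5 CPM in WT. The groups did not overlap but were close at their edges (−0.41, SE 0.19, adjusted p = 0.293), and Tmem198b on the opposite strand covers 22.3% of its exons. Mmp28 averaged 10.2 ± 0.92 CPM in KO and 10.7 ± 1.73 CPM in WT (SD, n = 3 each). In this group 0 of 2 tested members passed with edgeR or DESeq2 (0 at an unadjusted p under 0.05). Too few counts for a test were found for 7 members. Mmp27 held 9, 6 and 5 counts in KO and 3, 2 and 3 in WT, Mmp12 held 4, 8 and 4 in KO and 13, 5 and 6 in WT, and Adamts13, which cleaves von Willebrand factor, held 3, 7 and 2 in KO and 2, 4 and 1 in WT. Mmp20, the protease of tooth enamel, Mmp7, the protease of gland epithelia, and Mmp21 held at most 3 counts in any library, and Mmp1b held 0.

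**Figure D3:**
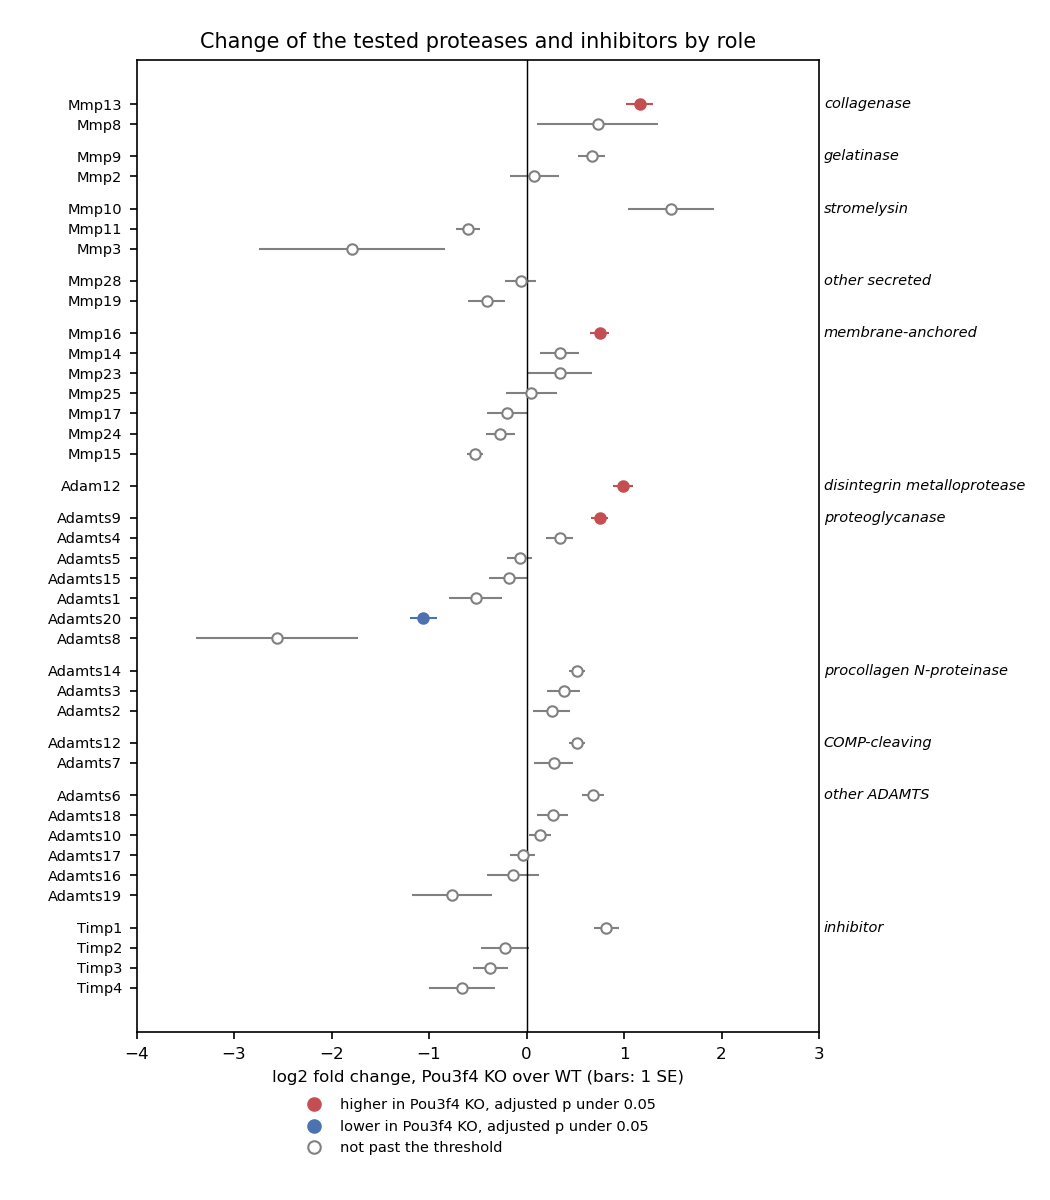
Log2 fold change, Pou3f4 KO over WT, of the 39 tested members grouped by role, with bars of 1 SE. Filled points passed the threshold (red higher and blue lower in KO), and open points did not. Mmp3 and Adamts8 have the widest error bars and the most negative values.

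Adam12, a membrane-bound and secreted disintegrin and metalloprotease of mesenchymal, muscle and bone precursor cells (ENSMUSG00000054555, chromosome 7, 133883199 to 134232146, minus strand), had the lowest adjusted p of the members. It stood at 217, 202 and 241 CPM in KO, against 106, 119 and 106 CPM in WT, and no library of one genotype came near the other. Adam12 rose 1.99-fold, with means of 220 ± 19.6 CPM in KO and 110.5 ± 7.71 CPM in WT (SD, n = 3 each; log2 fold change 0.99, SE 0.10, adjusted p = 0.0387, edgeR), and its log2 fold change lay between 0.93 and 1.06 without single libraries. Of 10 other ADAM proteases tested, 0 passed with edgeR and 2 were lower with DESeq2 (6 at an unadjusted p under 0.05, edgeR). Fitted changes were above 0 for 5 of them and below 0 for 5. The sheddase Adam10 stood at 278 ± 12.5 CPM in KO and 242 ± 40.7 CPM in WT, and Adam9 at 96.9 ± 1.80 CPM in KO and 89.3 ± 9.34 CPM in WT (SD, n = 3 each).

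The proteoglycanases, which cut aggrecan, versican and related proteins, held a rise and a fall. Adamts9 (ENSMUSG00000030022, chromosome 6, 92772699 to 92943492, minus strand) stood at 143, 146 and 166 CPM in KO, against 94.4, 88.9 and 86.3 CPM in WT. It rose 1.68-fold, with means of 151 ± 12.5 CPM in KO and 89.9 ± 4.13 CPM in WT (SD, n = 3 each; log2 fold change 0.75, SE 0.09, adjusted p = 0.049, edgeR). Genes on the opposite strand, A730049H05Rik and Gm15737, cover 9.2% and 2.8% of its exons. They held 1164 and 837 counts over the 6 libraries, against 14779 for Adamts9. Adamts20 (ENSMUSG00000022449, chromosome 15, 94270163 to 94465418, minus strand), the closest relative of Adamts9 and known in mice for the migration and survival of skin melanoblasts, went the other way. It stood at 7.40, 7.67 and 7.36 CPM in KO, against 17.7, 13.8 and 15.5 CPM in WT, with no overlap and little spread among the KO libraries. Adamts20 fell 2.09-fold, with means of 7.47 ± 0.17 CPM in KO and 15.6 ± 1.95 CPM in WT (SD, n = 3 each; log2 fold change −1.06, SE 0.14, adjusted p = 0.049, edgeR). Without single libraries the log2 fold change lay between 0.69 and 0.80 for Adamts9 and between −1.14 and −0.98 for Adamts20. Marker sums of 3 cell types were also lower in every KO library than in every WT library, and these lists were picked for that. Of all single genes tested, 12.7% showed the same pattern. The osteoclast and macrophage sums were higher in every KO library, and the sums of the other marker lists overlapped between the genotypes. The 8 Schwann cell markers summed to 3118, 3506 and 3071 CPM in KO and to 4372, 8018 and 7160.2 CPM in WT (8 of 8 fitted below 0, 4 called lower with edgeR and 5 with DESeq2). The 7 markers of otic mesenchyme and fibrocytes summed to 1208, 1215 and 1248 CPM in KO and to 1735, 3028 and 2888 CPM in WT (6 of 7 fitted below 0, 2 called lower with edgeR and 3 with DESeq2). The 10 chondrocyte markers summed to 6205 to 6997 CPM in KO and 10065 to 11042 CPM in WT (9 of 10 fitted below 0, 2 called lower with edgeR and 5 with DESeq2). The part of these cell types in the lower levels of Adamts20, Mmp11 and Mmp15 was not tested.

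The other proteoglycanases did not pass with edgeR. Adamts8 held 26, 39 and 15 counts in KO and 267, 25 and 110 counts in WT, so WT replicate 2 lay within the KO range and the change of −2.56 (SE 0.83, adjusted p = 0.176) followed WT replicates 1 and 3. DESeq2 called it lower with an adjusted p of 0.011, as did edgeR when WT replicate 2 was left out (−3.05, adjusted p = 0.0395). Without WT replicate 1 the change was −1.51 (adjusted p = 0.162, edgeR), with limma-voom it was −1.98 (adjusted p = 0.355), and over all 15 alternatives the adjusted p lay between 0.011 and 0.489. Adamts1 stood at 46.5, 48.3 and 43.0 CPM in KO and at 97.2, 44.6 and 55.4 CPM in WT. Its highest level was in WT replicate 1, and its change was −0.52 with that library and −0.14 without it. The main aggrecanases of cartilage, Adamts4 and Adamts5, averaged 24.4 ± 2.24 and 45.4 ± 3.32 CPM in KO, against 19.3 ± 3.04 and 47.7 ± 7.46 CPM in WT (SD, n = 3 each), with changes of 0.34 and −0.07 (adjusted p = 0.262 and 0.801). Adamts15 had a change of −0.18 (adjusted p = 0.645).

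The 3 procollagen N-proteinases, which remove the amino-terminal propeptide of fibrillar procollagens, had fitted changes above 0. Adamts14 stood at 55.8, 52.9 and 58.0 CPM in KO, against 37.9, 40.5 and 37.7 CPM in WT. The groups were far apart for their spread, yet the change of 0.52 (SE 0.08) stayed just over the threshold (adjusted p = 0.0556, edgeR), and DESeq2 called it higher (adjusted p = 3.52e-05). Adamts3 stood at 9.84, 7.67 and 7.95 CPM in KO and at 7.37, 5.79 and 6.46 CPM in WT, with no overlap and a change of 0.38 (SE 0.17, adjusted p = 0.287). Adamts2, the family member best known for type I procollagen, stood at 171, 160 and 179 CPM in KO and at 188, 125 and 114 CPM in WT. Again only WT replicate 1 reached the KO libraries (0.26, SE 0.19, adjusted p = 0.484), and the change was 0.50 without it (adjusted p = 0.0198). The change was 0.18 without WT replicate 2 and 0.12 without WT replicate 3 (adjusted p = 0.657 and 0.748, edgeR). Of the astacin proteases and enhancers, which remove the carboxy-terminal propeptide, 0 of 5 tested genes passed with edgeR and 2 were higher with DESeq2 (4 at an unadjusted p under 0.05, edgeR). Fitted changes of these genes were above 0 for 2 and below 0 for 3, with a median log2 fold change of −0.24. Their most abundant genes were the enhancer Pcolce, at 421 ± 11.5 CPM in KO and 288 ± 44.1 CPM in WT, and Bmp1, at 374 ± 17.01 CPM in KO and 269 ± 34.5 CPM in WT (SD, n = 3 each).

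Adamts12 and Adamts7, both known to cleave cartilage oligomeric matrix protein, had changes of 0.52 (SE 0.08, adjusted p = 0.0611) and 0.28 (SE 0.20, adjusted p = 0.476). Adamts12 stood at 118, 114 and 131 CPM in KO, against 86.9, 84.2 and 82.1 CPM in WT, with no overlap. DESeq2 called it higher (adjusted p = 2.97e-05), as did edgeR without WT replicate 1 or 2. Adamts7 stood at 20.7 to 23.6 CPM in KO and at 15.1 to 24.6 CPM in WT. Among the remaining ADAMTS genes, Adamts6, a close relative of Adamts10, stood at 17.8, 19.0 and 20.9 CPM in KO, against 11.7, 12.0 and 12.3 CPM in WT. The groups did not overlap (0.68, SE 0.11, adjusted p = 0.063, edgeR), and DESeq2 called it higher (adjusted p = 0.000158). Adamts10 averaged 85.4 ± 4.21 CPM in KO and 77.7 ± 9.81 CPM in WT (SD, n = 3 each). Adamts16, Adamts17, Adamts18 and Adamts19 had changes of −0.14, −0.04, 0.27 and −0.76 and overlapping libraries. Of the 7 ADAMTS-like proteins, which lack the protease domain, 0 passed with edgeR, and DESeq2 called 1 higher and 2 lower (3 at an unadjusted p under 0.05, edgeR). Fitted changes were above 0 for 2 of them and below 0 for 5, with a median log2 fold change of −0.33. Those named here are the 2 most abundant. The microfibril protein Thsd4 stood at 113 ± 18.8 CPM in KO and 73.8 ± 5.95 CPM in WT, and Adamtsl1 at 35.2 ± 5.12 CPM in KO and 28.0 ± 8.53 CPM in WT (SD, n = 3 each).

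Of the 4 inhibitors, 0 passed with edgeR and 1, Timp1, was higher with DESeq2 (1 at an unadjusted p under 0.05, edgeR). Timp1 (ENSMUSG00000001131, chromosome X, 20870166 to 20874735, plus strand), the TIMP that binds proMmp9, stood at 99.6, 104 and 99.6 CPM in KO, against 55.5, 68.1 and 48.1 CPM in WT. The KO libraries lay close together and above each WT library, and the change of 0.82 (SE 0.13) did not pass with edgeR (adjusted p = 0.0611). It did with DESeq2 (adjusted p = 1.64e-05), without a filter on low counts and without WT replicate 1 or 2. This gene is X-linked, and of the libraries with few Xist counts KO replicate 1 stood at the level of KO replicate 3, which had many, while WT replicate 3 was the lowest WT library. With Xist reads as a term the change was 0.83 (adjusted p = 0.145, edgeR). Timp2, which takes part in the activation of proMmp2, stood at 629, 603 and 645 CPM in KO and at 1055, 570 and 554 CPM in WT. It was highest in WT replicate 1, and its change was −0.22 (SE 0.25, adjusted p = 0.666) with all libraries and 0.14 without that one. Timp3, the matrix-bound inhibitor that also blocks ADAMTS proteases, stood at 319, 318 and 343 CPM in KO and at 545, 337 and 382 CPM in WT (−0.37, SE 0.18, adjusted p = 0.313). Syn3, on the opposite strand, covers 21.3% of its exon length. Timp4 averaged 6.47 ± 1.62 CPM in KO and 10.2 ± 4.18 CPM in WT (−0.66, adjusted p = 0.338).

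Of the 12 tested activators and other inhibitors, 1 passed with edgeR. The inhibitor of plasminogen activators and thrombin Serpine2 rose to 1525 ± 48.7 CPM in KO, against 835 ± 118 CPM in WT (SD, n = 3 each; log2 fold change 0.87, SE 0.12, adjusted p = 0.049). DESeq2 called 2 higher and 1 lower. Among 18 matrix substrates, 4 were higher and 1 was lower with edgeR and with DESeq2, while 5 had fitted changes above 0 and 13 below, with a median log2 fold change of −0.44. The type I collagen chains Col1a1 and Col1a2, which Mmp13 cleaves, had log2 fold changes of 1.01 and 1.04, and tenascin C (Tnc) of 1.17. The type II collagen Col2a1, also cleaved by Mmp13, fell, with a log2 fold change of −1.09 (adjusted p = 0.0387). The aggrecan core protein Acan, named after seeing its values as the substrate of the aggrecanases, had 172 ± 34.0 CPM in KO and 289 ± 170 CPM in WT (SD, n = 3 each; adjusted p = 0.404, edgeR). Col2a1 and Acan are also among the chondrocyte markers, so the lower sum of those markers is in part the same observation. Beside it, the 10 osteoblast and osteocyte markers summed to 10159 to 10707 CPM in KO and 7361 to 10680.3 CPM in WT. The part of these cell types in the levels of the proteases was not tested.

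Levels of different members were compared per kilobase of exon. Mmp9 came first and Mmp13 next in both genotypes, at 952 and 887 CPM per kb in KO and at 597 and 398 CPM per kb in WT. Mmp2 followed at 208 CPM per kb in KO and 197 CPM per kb in WT, then Timp2 at 161 CPM per kb in KO and 186 CPM per kb in WT. Per kilobase, Adam12 had 20.8 CPM in KO and 10.4 CPM in WT, Adamts9 had 10.1 CPM in KO and 5.97 CPM in WT, and Mmp16 had 7.72 CPM in KO and 4.60 CPM in WT. Adamts20 was the least abundant of the 5 called members, at 0.831 CPM per kb in KO and 1.74 CPM per kb in WT.

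**Figure D4:**
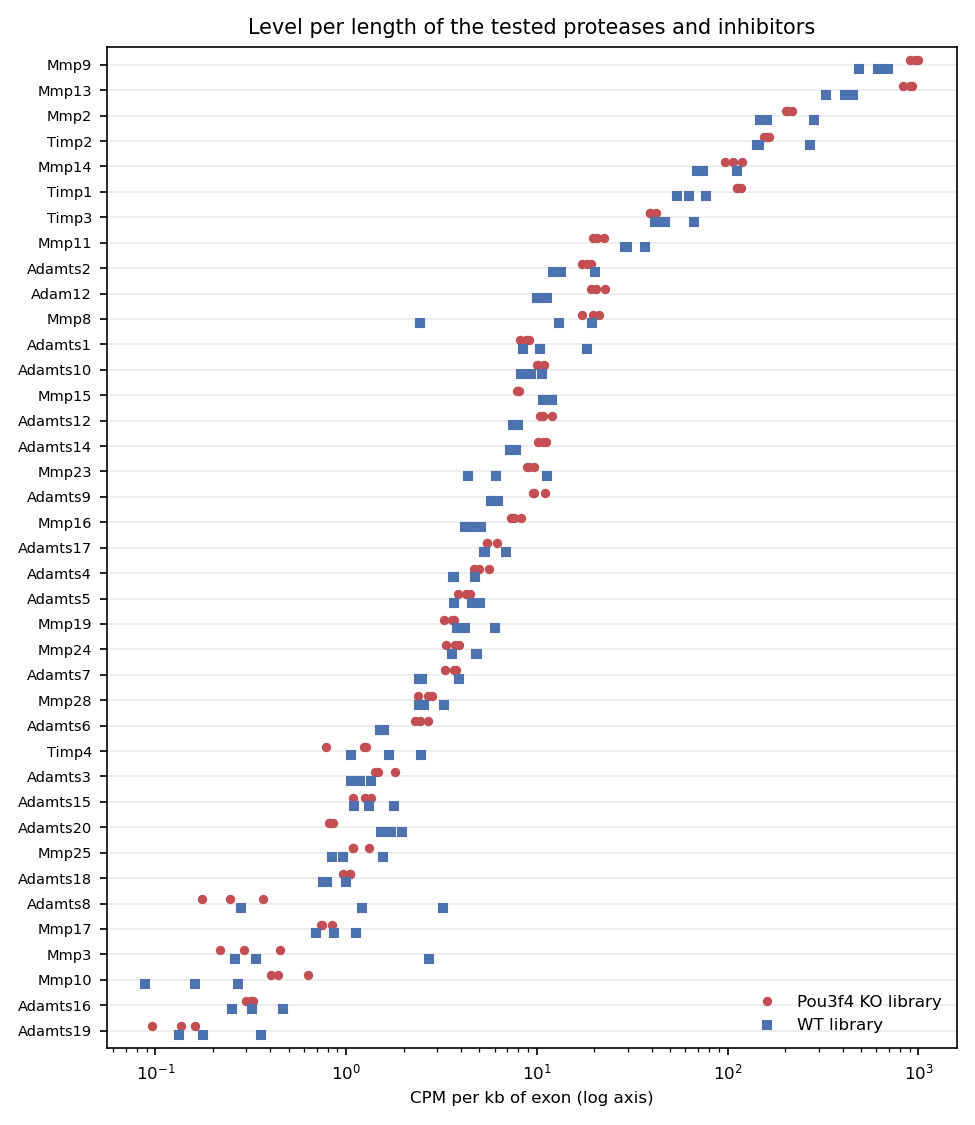
Level per length (CPM per kb of exon, log axis) of the 39 tested members in each Pou3f4 KO library (circles, upper) and WT library (squares, lower), sorted by mean level. Mmp9 and Mmp13 lead, and most Adamts genes lie below 20 CPM per kb.

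Summed over the 22 Mmp genes, the level per kilobase was 2256, 2106 and 2338 CPM per kb in KO, against 1416, 1335 and 1325 CPM per kb in WT. Mmp13 made up 39.4% to 40.2% of that sum in KO and 24.8% to 31.95% in WT, while the share of Mmp9 was 42.5% to 42.8% in KO and 34.3% to 52.2% in WT. The 4 Timp genes summed to 314, 313 and 321 CPM per kb in KO and to 402, 266 and 246 CPM per kb in WT, and Timp1 made up 35.0% to 37.6% of that sum in KO and 15.6% to 28.9% in WT. The ratio of the Mmp sum to the Timp sum was 7.18, 6.73 and 7.29 in KO, against 3.52, 5.03 and 5.39 in WT. These sums weigh transcripts, not active enzyme, and were not tested, since the members were chosen with earlier results known. The 19 Adamts genes summed to 93.4 to 99.3 CPM per kb in KO and to 75.5 to 102 CPM per kb in WT.

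Over the 39 tested members, 21 had fitted changes above 0 and 18 below, and the median log2 fold change was 0.08, beside −0.01 for all genes tested. In 11 members every KO library lay above every WT library, which was 28.2% of members beside 15.0% of all genes tested, and in 4 (10.3%) every KO library lay below, where 12.7% of all genes did. Without WT replicate 1, 43.6% of the tested members were called, beside 9.06% of all genes, and the members that joined in the higher direction were Adamts2, Adamts6, Adamts7, Adamts12, Adamts14, Mmp2, Mmp9, Mmp14, Mmp23 and Timp1. Leaving out WT replicate 3 instead gave 0 members and 0 genes called.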

How the data were processed

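RNA of inner ear cells was sequenced from TruSeq Stranded mRNA libraries, per the labels' protocols. Trimmomatic, HISAT2, Cufflinks and HTSeq and the build mm10 are listed, without versions, in the submitters' processing notes. Annotation and strand setting were not given in the sources used here. Raw read counts per gene, as whole numbers, are what the authors deposited. Groups follow the sample titles.

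Counts were filtered with filterByExpr of edgeR 4.0.16 (minimum count 10), scaled by TMM, and fitted across all genes by genotype alone (glmQLFit, glmQLFTest; R 4.3.3), with Benjamini-Hochberg adjustment over 19687 genes, a threshold of 0.05 and no minimum fold. CPM use the scaled library sizes. SE is the log2 fold change over the root of F. Limits for counts of 0 use 3 counts. The fit was tested on simulated data with the same spread in both groups, which the libraries here did not have. DESeq2 1.42.0, limma-voom 3.58.1, other scalings and filters, a replicate block, a term for Xist reads, fits without mitochondrial, haemoglobin and muscle genes and fits without each library were alternatives. Exon lengths and overlaps are from GENCODE M21, whose coordinates equal the table's for all 46 members. Promoters are from RefSeq (GRCm38.p6) and coding sequences from GENCODE M21.

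Members and lists were chosen with earlier results of these data known. Every member is accounted for. Values by library are given for members past the threshold and for those averaging 1 CPM or more whose genotypes did not overlap. From pathway lists up to 4 genes past the threshold, or the 2 most abundant, are named. Marker lists are given as sums. Most of those set beside a member were picked because they moved with it in these same data, so they are description only. Of the lists not named above, endothelium summed to 470 to 510 CPM in KO and 427 to 617 CPM in WT. Erythroid markers summed to 2092 to 3358 CPM in KO and 2028 to 7876 CPM in WT (7 of 7 fitted below 0).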

Additional observations from a re-analysis of the deposited data

How the results depend on the processing

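The number of genes past the threshold was 78, with 4 members higher and 1 lower. DESeq2 gave 1596 genes, 9 members higher and 4 lower. The filter of 1 CPM in 3 libraries gave 2 lower, the other being Mmp15. With the replicate block 1 gene and 0 members passed (14 members and 2992 genes at an unadjusted p under 0.05), and with Xist reads as a term 0 genes and 0 members did (14 and 3185). Same-numbered libraries deviated with correlations of −0.295 to −0.131, and 0 of 6 libraries correlated best with their own number, so no pairing by number was seen. The check cannot exclude a pairing, since differences in tissue between the libraries could hide it. Without 1 library, counts ranged from 0 to 1814 genes, 0 to 14 members higher and 0 to 3 lower, and the median log2 fold change of the members from −0.01 to 0.22, within the spread of that median between libraries. RLE and upper-quartile scaling, limma-voom and leaving out mitochondrial, haemoglobin and muscle genes kept the same 5 members, and so did the fit with no filter, which added Timp1. The 5 kept their direction in all 15 alternatives and passed in 9. Signs turned in members that did not pass with all libraries. Without 1 library at a time the log2 fold change ranged from −0.38 to 0.14 for Timp2, −0.19 to 0.02 for Adamts5, −0.32 to 0.12 for Adamts16, −2.26 to 0.05 for Mmp3, −0.33 to 0.01 for Adamts15, −0.11 to 0.08 for Adamts17, −0.14 to 0.06 for Mmp28, −0.13 to 0.36 for Mmp25 and −0.09 to 0.43 for Mmp2. The first 7 turned above 0 without WT replicate 1 (Mmp28 also without KO replicate 2), Mmp25 was below 0 without WT replicate 1, WT replicate 3 or KO replicate 3, and Mmp2 without WT replicate 2 or 3. The cause was not tested. Members under the filter had too few counts for a comparison.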
